A study of Mus musculus with 27 samples.

Results

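The late-gestation response of the central vein (CV) zone of the maternal mouse liver was examined by comparing 3 laser-microdissected zone 3 libraries of mice at day 16 post coitum (dpc16) with 3 zone 3 libraries of non-pregnant (NP) mice. The comparison was made between 6 of the 27 RNA-seq libraries of the series, which also holds zones 1 and 2 and day 8 (dpc8). All genes with FPKM (fragments scaled to transcript length and library size) of at least 1 in at least 3 of the 6 libraries entered it, which were 11117 of the 21823 genes listed. Both groups were female wild-type mice of strain C57BL/6 in the labels and C57BL/6N in the study's methods, which call the females virgin and give their ages as a range of weeks and not per library. The groups differed in pregnancy alone as far as the labels say. No drug, transgene or virus is named for them. Each library came from areas of cryosections cut out with a laser, and so holds all cells within those areas. The labels number the libraries as experiments and do not say whether each came from a separate mouse. The p-values therefore measure a spread between libraries. This spread was estimated within groups of stage and zone over all 27 libraries, except where a fit is said to use fewer. Fewer cells of a type and less RNA per cell cannot be told apart in such bulk material.

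Zone 3 is the part of the liver lobule around the central vein, where blood leaves the lobule with little oxygen left. Hepatocytes there are known for glutamine synthesis, drug metabolism by cytochromes P450 and bile acid synthesis, under the control of Wnt signals from the central vein endothelium. During pregnancy the maternal liver grows, and placental hormones related to prolactin act on hepatocytes through the receptor encoded by Prlr.

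Before any comparison, a library of each group stood apart from its replicates. All mice are labelled female, yet 4 Y-linked genes summed to 7.92 FPKM in NP replicate 2 and to 16.6 FPKM in dpc16 replicate 3, against at most 0.973 in the other 4 libraries. These were also the libraries with the highest summed FPKM of 16 connective tissue and smooth muscle genes in their groups, 1193 in NP replicate 2 and 3109 in dpc16 replicate 3, against 163 to 522 in the others. The correlation of log2 values was 0.971 between dpc16 replicates 1 and 2 and at most 0.850 between either and replicate 3, whereas NP replicates correlated between 0.906 and 0.940. Counts of called genes are therefore also given without both libraries, and the part of these differences in the results was not tested. The table lists no read counts, but low FPKM values recur in fixed ratios between libraries, from which 1 read was worth up to 1.99 times as much FPKM in 1 library as in another.

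Hepatocyte markers were abundant in all 6 libraries. Glul, the glutamine synthetase gene that marks hepatocytes next to the central vein, was listed at 3264, 2889.7 and 3092 FPKM in the NP libraries and 2039, 3152 and 1349 FPKM in the dpc16 libraries. Cyp2e1, a pericentral cytochrome P450, stood at 11838, 7106 and 10625 FPKM in NP and 8168, 8257 and 4105 FPKM at dpc16. The 7 hepatocyte markers analysed summed to between 40972 and 51181 FPKM in NP and between 73588 and 174426 FPKM at dpc16, and none was at 0 in any library. Albumin alone took 3.71% to 5.02% of the FPKM sum in NP and 9.59% to 16.5% at dpc16.

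Of the 11117 genes, 97 were higher and 86 were lower at dpc16 at an adjusted p under 0.05, which is 1.65% of the genes tested, 0.873% higher and 0.774% lower. An unadjusted p under 0.05 was reached by 1434 genes, 648 higher (5.83%) and 786 lower (7.07%). Of the called genes, 21 higher ones were under 1 FPKM in all 3 NP libraries and 8 lower ones in all 3 dpc16 libraries. These passed the filter on low values only through the group where they are high, so that a difference was a condition of their being tested. The median log2 fold change over all genes was 0.00, so that the distribution as a whole was centred. The 3 values of each group did not overlap for 936 genes higher at dpc16 (8.42%) and 1080 genes lower (9.71%), and 96 of the 97 higher and 85 of the 86 lower genes were among them. Without both libraries with Y-linked FPKM, 75 genes were higher and 59 lower, of which 66 and 41 were among those called with all libraries. With the mean of the connective tissue genes as a covariate the split was 248 higher and 369 lower. Leaving out any single zone 3 library gave between 54 and 97 higher and between 37 and 85 lower genes, and 47 higher and 24 lower genes passed in all 6 such fits. When the spread was estimated from the 6 libraries alone, 32 genes were higher and 19 were lower. Fold changes below are differences of mean log2(FPKM + 1) with the fitted standard error after ±, and they understate the change of weakly expressed genes.

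**Figure D1:**
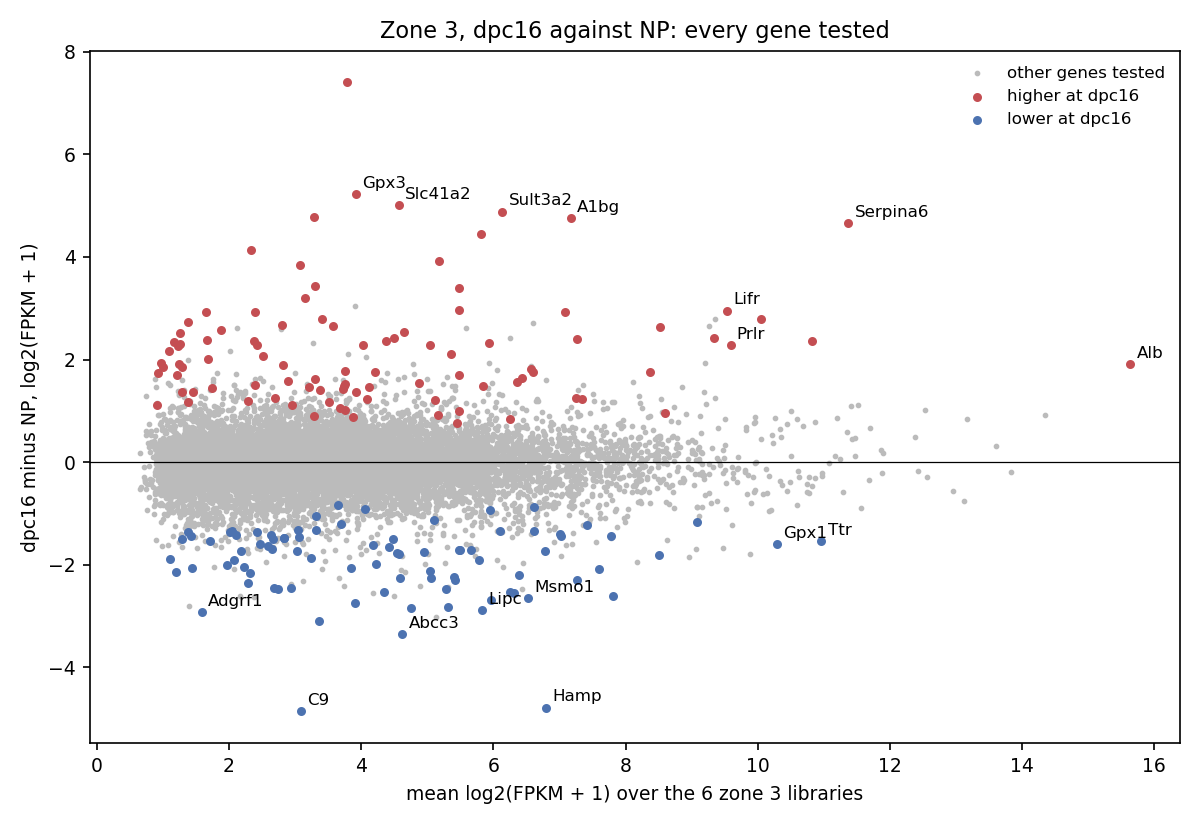
Mean level against change for each of the 11117 genes tested in zone 3. The x axis is the mean log2(FPKM + 1) over the 6 libraries, the y axis is dpc16 minus NP in the same unit, and each point is a gene, coloured where the adjusted p was under 0.05. Gpx3 and Slc41a2 lie near the top, C9 and Hamp at the bottom, and Alb at the far right.

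Gpx3 and Slc41a2 were among the genes with the largest rises, and C9 and Hamp had the largest falls. Gpx3, which encodes a secreted selenium-dependent glutathione peroxidase (chr11:54902453-54910377 in mm10), was listed at 1.25, 3.22 and 0.605 FPKM in NP and at 92.4, 90.3 and 93.7 FPKM at dpc16. The 3 dpc16 values were nearly equal and far above each NP value. The difference was 5.23 ± 0.59 on the log2 scale (adjusted p = 1.3e-05), or 54.5-fold between the group means. Slc41a2, a magnesium transporter gene (chr10:83230848-83337882), stood at 1.93, 7.08 and 2.08 FPKM in NP and 132, 206 and 88.5 FPKM at dpc16, again without overlap. Its difference was 5.01 ± 0.63 (adjusted p = 4.63e-05), or 38.4-fold between means. Both calls held under all 10 alternative settings and in all 6 fits that left out a library.

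C9 encodes the last component of the complement membrane attack complex (chr15:6445327-6498751). Its FPKM was 20.2, 82.8 and 53.5 in the NP libraries and 0.964, 0.844 and 0.0950 at dpc16, where all values were below 1. The difference was -4.86 ± 0.64 (adjusted p = 8.86e-05). C9 passed the filter on low values through the NP libraries alone, and no fold is given against values below 1. Hamp encodes hepcidin, the hormone that limits iron release into plasma (chr7:30942368-30944032). It was at 790.4, 447 and 562 FPKM in NP and at 12.1, 133 and 4.41 FPKM at dpc16. The groups did not overlap, but the dpc16 libraries differed widely, with replicate 2 highest. The difference of -4.79 ± 1.18 passed the threshold narrowly (adjusted p = 0.0395). It did not pass when NP replicate 1, 2 or 3 or dpc16 replicate 1 or 3 was left out, with an adjusted p of up to 0.156, nor without both libraries with Y-linked FPKM (-3.99, adjusted p = 0.211). Hamp2, the closely similar neighbouring gene that can share reads with Hamp, had a difference of -0.94 ± 0.64 (adjusted p = 0.607).

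The bases upstream of the RefSeq starts of these 4 genes are shown because these genes lead the comparison. Those of Prlr, A1bg and Hmgcs1 are shown because their windows hold a letter match to motifs of factors that act in hormone and sterol responses. Each run is the 250 bases before the RefSeq start on GRCm38.p6, 5′ to 3′ on the gene's strand, and capitals mark matches on either strand. RefSeq starts differ from the gene positions given above, which come from GENCODE. The Gpx3 window lies within the position given for that gene, and those of Slc41a2, C9 and Hamp overlap theirs. The motifs searched were the sterol regulatory element TCACNCCAC, the STAT palindrome TTCNNNGAA and the BMP-responsive element GGCGCC.
Gpx3 chr11:54902604-54902853 (+ strand): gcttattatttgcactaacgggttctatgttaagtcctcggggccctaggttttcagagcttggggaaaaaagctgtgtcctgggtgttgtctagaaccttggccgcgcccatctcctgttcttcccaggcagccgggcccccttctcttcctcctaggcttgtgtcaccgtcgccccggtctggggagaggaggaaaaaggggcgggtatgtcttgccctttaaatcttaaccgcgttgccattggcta
Slc41a2 chr10:83337818-83338067 (- strand): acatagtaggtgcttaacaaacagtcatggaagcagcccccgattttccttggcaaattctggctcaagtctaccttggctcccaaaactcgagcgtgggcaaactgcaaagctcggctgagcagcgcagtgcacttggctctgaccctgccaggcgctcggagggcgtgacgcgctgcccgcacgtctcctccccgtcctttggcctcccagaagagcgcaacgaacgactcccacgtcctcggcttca
C9 chr15:6445096-6445345 (+ strand): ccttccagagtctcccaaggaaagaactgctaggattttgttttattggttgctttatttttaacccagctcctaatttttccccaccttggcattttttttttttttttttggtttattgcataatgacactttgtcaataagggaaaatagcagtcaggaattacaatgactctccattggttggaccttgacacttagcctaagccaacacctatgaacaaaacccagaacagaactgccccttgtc
Hamp chr7:30944030-30944279 (- strand): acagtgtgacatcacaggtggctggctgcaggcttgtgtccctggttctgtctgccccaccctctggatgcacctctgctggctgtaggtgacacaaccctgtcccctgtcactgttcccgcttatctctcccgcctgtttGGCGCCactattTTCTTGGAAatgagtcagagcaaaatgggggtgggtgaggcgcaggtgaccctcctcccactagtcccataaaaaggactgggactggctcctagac
Prlr chr15:10223656-10223905 (+ strand): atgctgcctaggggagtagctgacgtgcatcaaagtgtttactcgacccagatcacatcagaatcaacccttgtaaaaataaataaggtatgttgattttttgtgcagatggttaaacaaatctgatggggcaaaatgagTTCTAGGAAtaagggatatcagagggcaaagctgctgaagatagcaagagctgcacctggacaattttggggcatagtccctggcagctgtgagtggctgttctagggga
A1bg chr15:60921271-60921520 (- strand): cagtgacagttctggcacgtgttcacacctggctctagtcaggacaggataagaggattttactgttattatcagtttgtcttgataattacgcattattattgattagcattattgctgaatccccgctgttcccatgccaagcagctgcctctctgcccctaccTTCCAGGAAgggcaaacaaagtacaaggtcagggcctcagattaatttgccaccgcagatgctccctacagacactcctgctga
Hmgcs1 chr13:119690101-119690350 (+ strand): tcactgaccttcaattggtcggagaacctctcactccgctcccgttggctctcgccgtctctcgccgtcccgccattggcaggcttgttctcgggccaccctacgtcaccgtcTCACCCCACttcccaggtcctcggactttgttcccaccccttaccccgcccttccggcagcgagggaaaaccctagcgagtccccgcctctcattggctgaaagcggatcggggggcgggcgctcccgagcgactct
Only the Hamp window, of the 4 leading genes, held a match. It holds the BMP-responsive letters at 109 to 104 bases and the STAT letters at 97 to 89 bases before the start. Of the 3 windows listed for Prlr, the 1 shown has a STAT match at 110 to 102 bases, and the A1bg window has 1 at 84 to 76 bases. The sterol element of Hmgcs1 lies at 137 to 129 bases. Over all 32817 windows the sterol element was found in 1.05%, the STAT palindrome in 7.01% and the BMP-responsive element in 9.59%. Windows were found for 77 of the 97 higher genes and 69 of the 86 lower genes. The STAT palindrome was in 6.25% of the 96 windows of the higher genes and in 5.62% of the 89 windows of the lower genes. The BMP-responsive element was in 11.5% and 13.5% of them, and the sterol element in 1.04% and 3.37%. A match describes letters and not bound factors.

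Genes of plasma proteins were among those that rose. Serpina6, which encodes the plasma carrier of glucocorticoids (chr12:103646630-103657212), was at 728, 294 and 680.1 FPKM in NP and 15930.5, 13795 and 10775 FPKM at dpc16. Its difference was 4.66 ± 0.49 (adjusted p = 4.92e-06), or 23.8-fold between means. A1bg, a plasma glycoprotein of the immunoglobulin superfamily, went from 38.7, 30.4 and 16.1 FPKM to 875, 871 and 560.4 FPKM (4.76 ± 0.58, adjusted p = 2.95e-05). Alb, the gene of the main plasma protein, was listed at 22396, 28226 and 28810.3 FPKM in NP and 137739, 126695 and 54993 FPKM at dpc16. All dpc16 values of Alb lay above all NP values, with replicate 3 the lowest of them. The difference of 1.91 ± 0.49 was close to the threshold (adjusted p = 0.0469) and was lost when any single library other than dpc16 replicate 3 was left out (adjusted p up to 0.201). Quantile normalization sets Alb, the top gene of every library, to a difference of 0 by construction.

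Receptors for hormones and cytokines were among the genes that rose. Prlr, the prolactin receptor gene, was at 335, 366 and 345 FPKM in NP and 2128, 1929.6 and 1189 FPKM at dpc16 (2.28 ± 0.38, adjusted p = 0.00109). Ghr, the growth hormone receptor gene, was at 249, 267 and 325 FPKM and 1908, 1580.2 and 1110.1 FPKM (2.42 ± 0.33, adjusted p = 0.000126). No NP value of either gene reached the lowest dpc16 value, and both calls held in each of the 10 alternative settings. Lifr, the receptor of leukaemia inhibitory factor, which was picked after its values were seen, was at 233, 228 and 358 FPKM and 2595, 2320.4 and 1481 FPKM (2.95 ± 0.49, adjusted p = 0.0012). Of the 21 tested genes of the prolactin, growth hormone and IGF axis, Prlr and Ghr were the 2 higher, beside 0.873% of all genes, and none was lower. The list's median was 0.08. Igfbp1, an IGF binding protein gene of this list, differed by 2.70 ± 1.02 without passing (adjusted p = 0.222).

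Pnliprp1, Sorcs3, Serpina16 and Crybb3 were listed at 0 in all 3 NP libraries and at 1.33 to 7.69 FPKM at dpc16, and the last 3 of these were picked after their values were seen. All of them passed the filter on low values only through the dpc16 libraries, so that a higher value there was a condition of their being tested. No fold is given against a group listed at 0.

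The other genes with the largest rises were of mixed function. Sult3a2, a sulfotransferase gene with the near copy Sult3a1, was at 15.2, 7.70 and 14.5 FPKM in NP and 548, 575 and 177 FPKM at dpc16 (4.89 ± 0.57, adjusted p = 1.93e-05). Klk1b4, of the many similar kallikrein genes, was at 0.817, 0.479 and 1.40 FPKM and 51.3, 46.3 and 52.1 FPKM (4.77 ± 0.37, adjusted p = 6.73e-08). Cyp4a31, a fatty acid hydroxylase gene of a family of close copies, was at 24.1, 4.997 and 4.46 FPKM and 221, 217 and 57.3 FPKM (3.91 ± 0.72, adjusted p = 0.00353). How unique reads were split between such copies is uncertain. Dnajc12, a co-chaperone of aromatic amino acid hydroxylases, was at 14.5, 6.77 and 13.1 FPKM and 273, 438 and 148 FPKM (4.45 ± 0.55, adjusted p = 4e-05). Nedd9, a scaffold protein of cell adhesion, was at 1.87, 1.47 and 2.77 FPKM and 42.6, 39.7 and 18.2 FPKM (3.44 ± 0.49, adjusted p = 0.000194). Slc16a6, of the monocarboxylate transporter family, was at 0.283, 0.203 and 0.114 FPKM and 22.7, 33.02 and 10.8 FPKM (4.14 ± 0.45, adjusted p = 7.55e-06), and is among the genes that passed the filter through the dpc16 libraries alone. In all of these, dpc16 replicate 3 was the lowest dpc16 library except for Klk1b4. Slc37a1, a sugar phosphate exchanger gene, varied widely, from 1.96, 0.910 and 0.907 FPKM to 28.8, 87.9 and 11.3 FPKM (3.85 ± 0.82, adjusted p = 0.013), and missed the threshold without NP replicate 3, dpc16 replicate 1 or dpc16 replicate 2 (adjusted p up to 0.112).

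**Figure D2:**
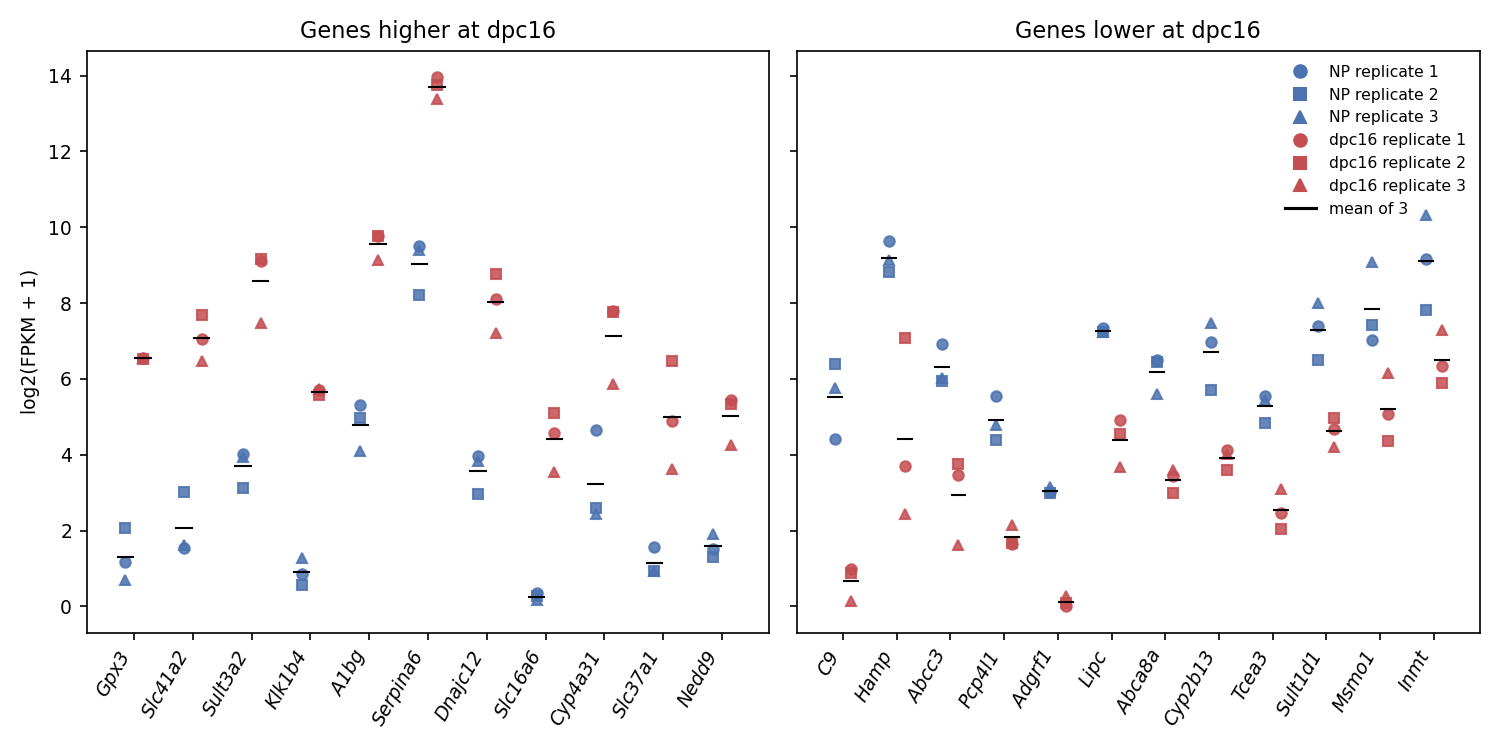
FPKM of 11 higher and 12 lower genes with the largest change among those past the threshold whose groups do not overlap. The y axis is log2(FPKM + 1), each marker is a library (circle, square and triangle for replicates 1, 2 and 3), blue is NP, red is dpc16 and bars are means of 3. The dpc16 values of Gpx3 and Klk1b4 nearly coincide, and those of Hamp spread from 4.41 to 133 FPKM.

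The genes that fell most after C9 and Hamp include transporters, a lipase and metabolic enzymes. Abcc3, an export pump for bile acids and conjugates in the basolateral membrane, was at 121, 61.1 and 64.1 FPKM in NP and 10.03, 12.5 and 2.08 FPKM at dpc16 (-3.35 ± 0.52, adjusted p = 0.000583). Lipc, hepatic lipase, which acts on circulating lipoproteins, was at 161, 149 and 150.4 FPKM and 29.2, 22.2 and 11.9 FPKM (-2.89 ± 0.35, adjusted p = 3.31e-05). Adgrf1, an adhesion G protein-coupled receptor gene, was at 7.07, 6.88 and 7.90 FPKM and 0, 0.0627 and 0.216 FPKM (-2.92 ± 0.30, adjusted p = 3.15e-06), and passed the filter through the NP libraries alone. The NP values of Lipc and Adgrf1 were close to each other and several times each dpc16 value. Cyp2b13, a cytochrome P450 gene with close copies, was at 125, 51.3 and 177 FPKM and 16.4, 11.01 and 15.1 FPKM (-2.82 ± 0.45, adjusted p = 0.000891). Sult1d1, a sulfotransferase gene, was at 169, 89.00 and 256 FPKM and 24.6, 30.5 and 17.6 FPKM (-2.68 ± 0.45, adjusted p = 0.00115). Abca8a, an ABC transporter gene, was at 88.7, 85.4 and 47.6 FPKM and 9.78, 6.98 and 11.1 FPKM (-2.83 ± 0.41, adjusted p = 0.000265). These 6 genes were called in each fit that left out a library. So were Pcp4l1 (-3.09 ± 0.39, adjusted p = 4.63e-05) and Tcea3, a transcription elongation factor gene (-2.75 ± 0.47, adjusted p = 0.0015). Inmt, an N-methyltransferase gene, ranged from 576, 225 and 1289 FPKM to 79.8, 58.5 and 155 FPKM (-2.60 ± 0.67, adjusted p = 0.0475), and its call was lost without NP replicate 1 or 3 or dpc16 replicate 1 or 2 (adjusted p up to 0.245).

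Genes of cholesterol synthesis and uptake had the lowest median of the 25 pathway lists. All 24 members tested had a negative difference, with a median of -1.77 against 0.00 over all genes, and 22 had an unadjusted p under 0.05. Past the adjusted threshold were 4 of 24, all lower, where the background of lower calls was 0.774%. The 2 groups did not overlap in 15 of 24 members, against 9.71% of all genes. Msmo1, a sterol C4-methyl oxidase, was at 129.7, 171 and 546 FPKM in NP and 32.6, 19.8 and 70.96 FPKM at dpc16 (-2.64 ± 0.57, adjusted p = 0.0134). NP replicate 3 was the highest of all 6 libraries for this gene. Insig1, which holds back the processing of sterol-sensing transcription factors, was at 136, 158 and 264 FPKM and 45.5, 18.2 and 65.2 FPKM (-2.20 ± 0.51, adjusted p = 0.0229). Hmgcs1, whose upstream window holds the sterol element above, was the 1 gene of 16 with windows in this list that has it. It stood at 101, 166 and 498 FPKM and 31.9, 18.3 and 78.5 FPKM and missed the threshold (-2.47 ± 0.67, adjusted p = 0.0632).

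The level of the pathway in NP replicate 3 bears on these calls. Without that library Msmo1 was at -2.02 (adjusted p = 0.123) and Insig1 at -1.92 (adjusted p = 0.139). Leaving out dpc16 replicate 1 or 2 also ended both calls (adjusted p up to 0.108 for Msmo1 and 0.174 for Insig1). The list's median stayed negative in all 17 alternatives, between -2.50 and -1.10. Without both libraries with Y-linked FPKM, 6 of 24 members were lower and the median was -2.50.

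**Figure D3:**
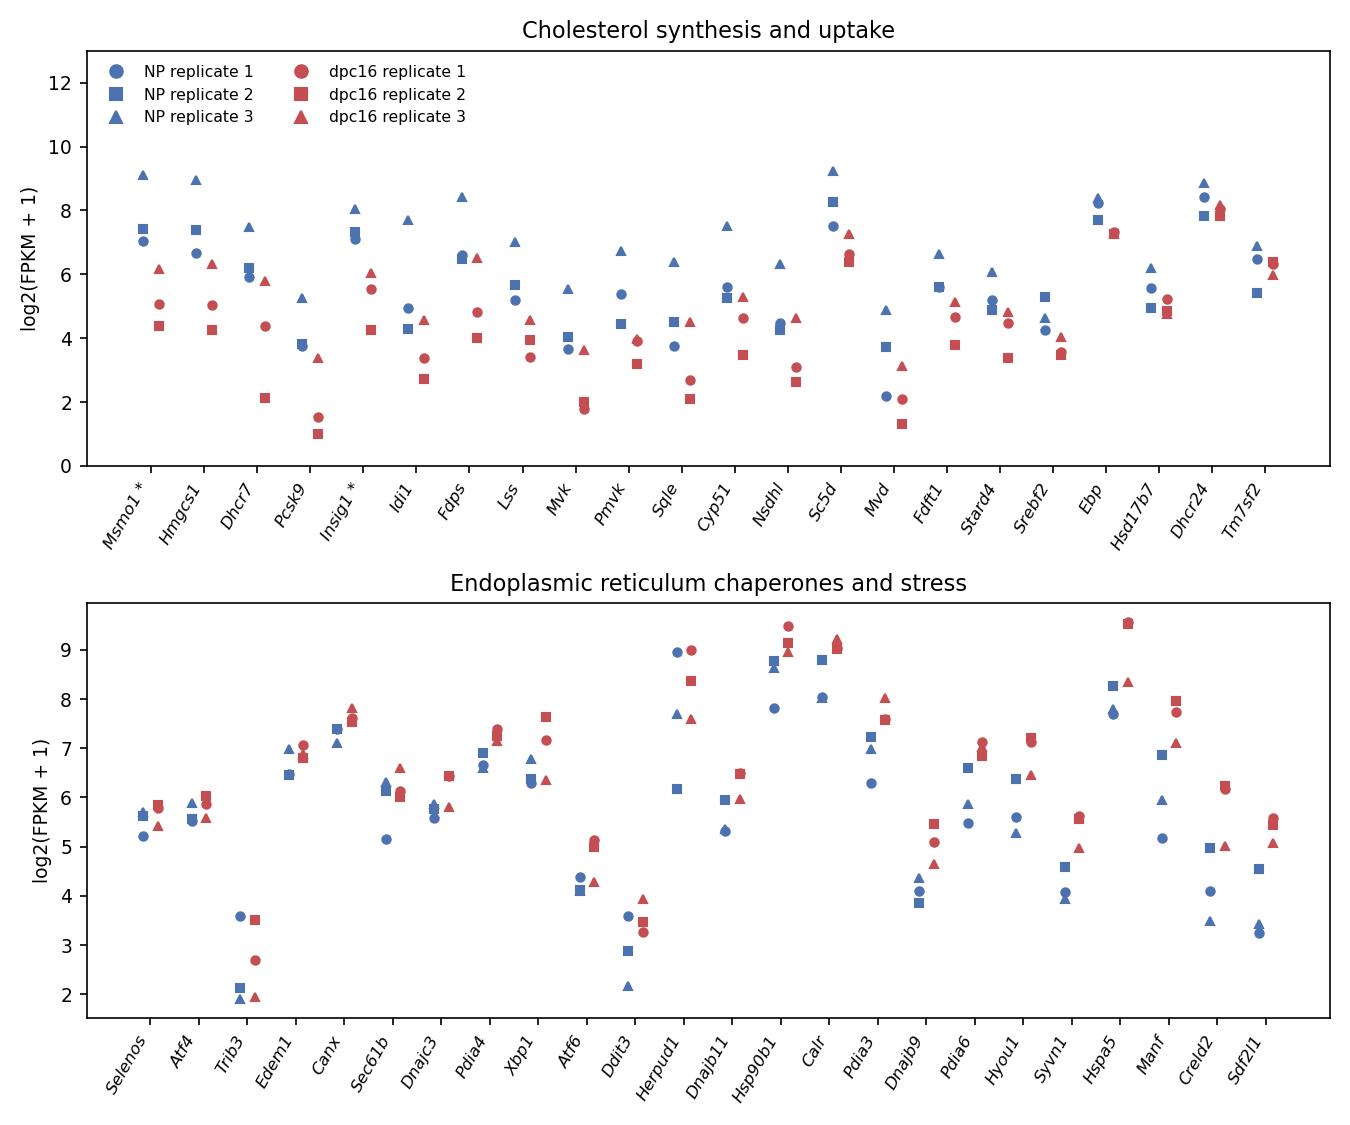
Library values of 22 genes of cholesterol synthesis and uptake (top) and 24 genes of endoplasmic reticulum chaperones and stress (bottom) in zone 3. The y axis is log2(FPKM + 1), markers and colours stand for libraries as in the plot of the leading genes, genes are ordered by their difference, and an asterisk marks an adjusted p under 0.05. The blue NP triangles lie highest for most cholesterol genes, and the red dpc16 markers lie above the blue ones for most genes of the lower panel.

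In the main fit, genes of endoplasmic reticulum chaperones and stress had the highest median of the 25 pathway lists, without any gene passing. All 24 members tested had a positive difference, with a median of 0.74 and a range from 0.17 to 1.62. The groups did not overlap in 14 of 24, against 8.42% of all genes, and 12 had an unadjusted p under 0.05. Manf, a secreted stress-induced factor, was at 35.3, 115 and 60.7 FPKM in NP and 213, 246 and 136 FPKM at dpc16 (1.60 ± 0.50, adjusted p = 0.115). Pdia6, a protein disulfide isomerase, was at 43.9, 95.5 and 57.4 FPKM and 139, 113 and 129 FPKM (1.01 ± 0.33, adjusted p = 0.132). With library weights 6 of the 24 members were higher and with the connective tissue covariate 1, in fits that called 744 and 617 genes in all. Manf passed in both (adjusted p = 0.00795 and 0.0452), and Pdia6 with library weights (0.0318). The median was between 0.66 and 0.90 under the 17 alternatives. The acute phase list had the higher median without both libraries with Y-linked FPKM (1.14 against 0.90) and with library weights (1.08 against 0.81).

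**Figure D4:**
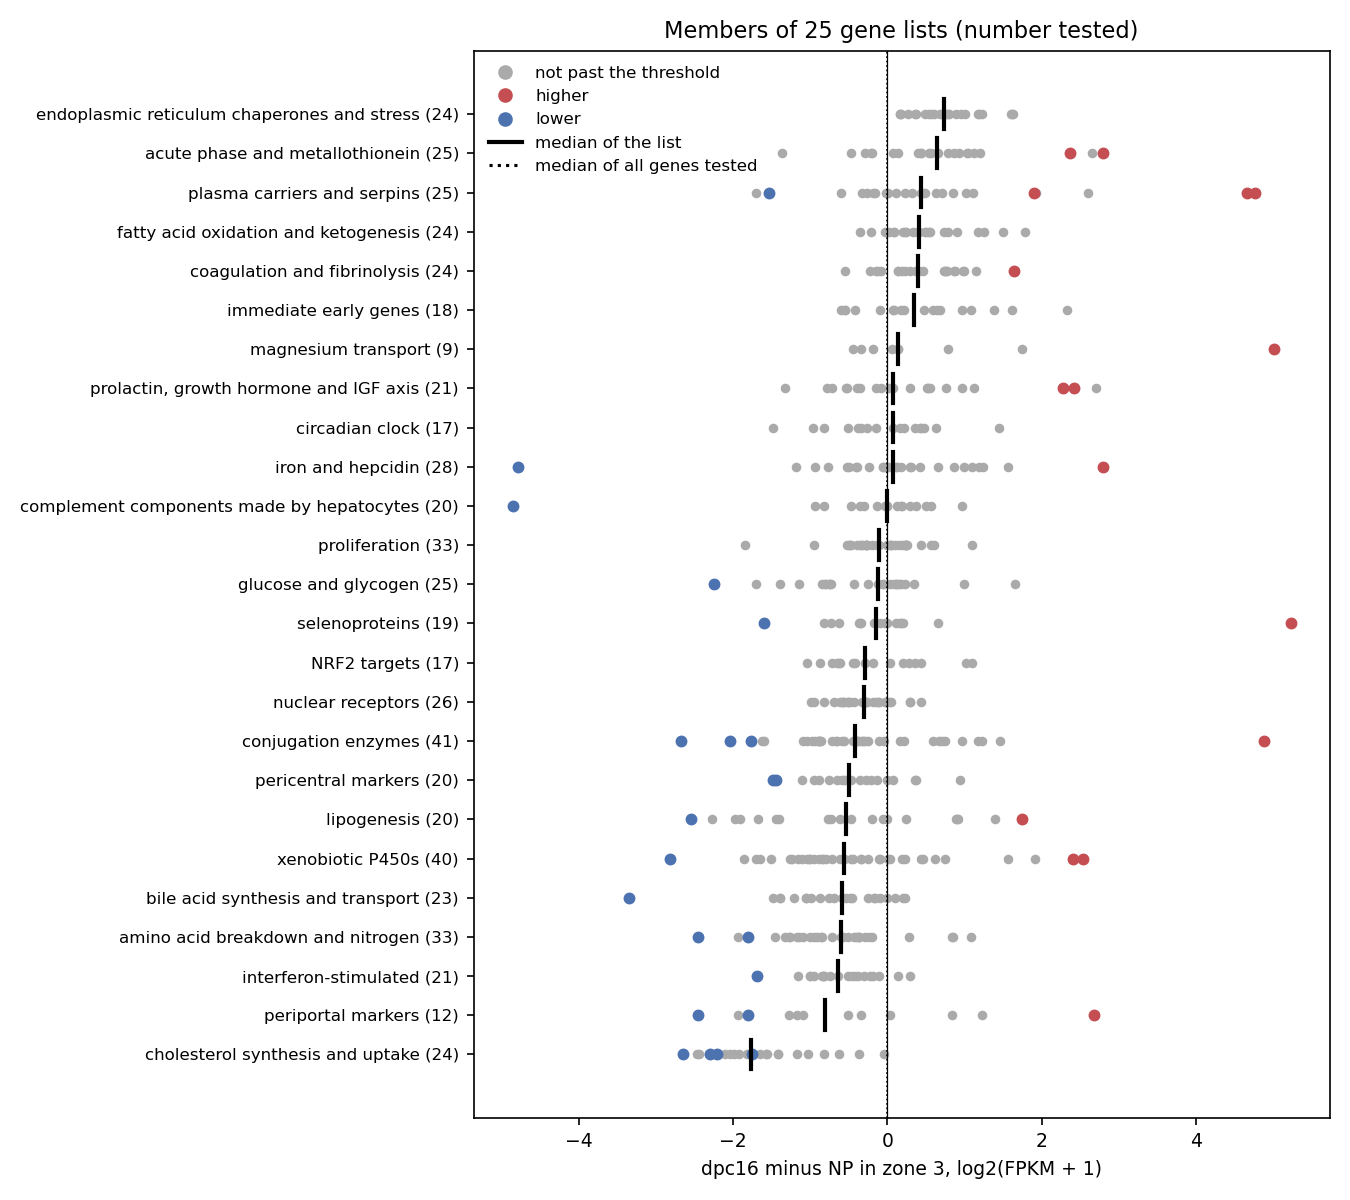
Differences of all tested members of 25 gene lists between dpc16 and NP in zone 3. The x axis is dpc16 minus NP in log2(FPKM + 1), each point is a gene, red and blue mark genes past the threshold, thick bars are list medians and the dotted line is the median of all genes tested. The list medians run from -1.77 for cholesterol synthesis to 0.74 for endoplasmic reticulum chaperones.

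Lists of plasma proteins other than complement had positive medians. Their counts of calls stand beside a background of 0.873% of all genes higher and 0.774% lower. Of 25 plasma carriers and serpins, Serpina6, A1bg and Alb were higher and Ttr was lower, with a median of 0.44. Ttr, the carrier of thyroid hormone and retinol-binding protein, was at 3303, 3338 and 3557 FPKM in NP and 1343, 1304 and 921 FPKM at dpc16 (-1.53 ± 0.38, adjusted p = 0.0407), and no fit that left out a library called it (adjusted p up to 0.136), nor did the fit without both libraries with Y-linked FPKM (adjusted p = 0.208). Of 25 acute phase and metallothionein genes 2 were higher, with a median of 0.64 that ran from 0.11 to 1.22 over the 17 alternatives. These were Cp, the copper-binding ferroxidase ceruloplasmin, at 395, 474 and 347 FPKM and 3462, 3589.9 and 1749 FPKM (2.79 ± 0.41, adjusted p = 0.000327), and Itih4, a plasma trypsin inhibitor chain (2.37 ± 0.41, adjusted p = 0.00162). Coagulation and fibrinolysis had 1 higher gene of 24 and a median of 0.40. It was F7, coagulation factor VII, at 39.99, 40.98 and 66.5 FPKM and 175, 164 and 121 FPKM (1.65 ± 0.36, adjusted p = 0.0168), which missed the threshold without NP replicate 1 or 2 or dpc16 replicate 1 or 2 (adjusted p up to 0.0955) and without both libraries with Y-linked FPKM (adjusted p = 0.0762). C9 was the 1 called gene of 20 complement components, whose median was -0.01 and changed sign in 7 of 17 alternatives.

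In iron handling, Cp was higher and Hamp lower among 28 genes, with a median of 0.07. Calls in this and the next lists stand beside 0.873% of all genes higher and 0.774% lower. Of 19 selenoprotein genes, Gpx3 was higher and Gpx1 lower, and the median was -0.15. Gpx1, the cytosolic glutathione peroxidase, was at 2019, 1951 and 2644 FPKM in NP and 836, 783 and 579 FPKM at dpc16 (-1.59 ± 0.32, adjusted p = 0.00756). It missed the threshold without NP replicate 3 (adjusted p = 0.0591) and without both libraries with Y-linked FPKM (adjusted p = 0.0668). Slc41a2 was the 1 called gene of 9 in magnesium transport, where the median was 0.14. None of 17 NRF2 targets passed and 2 had an unadjusted p under 0.05, with a median of -0.29, and the smallest p-values were those of Srxn1 (1.02 ± 0.37, adjusted p = 0.206) and Abcc4 (-1.05 ± 0.46, adjusted p = 0.33). Without both libraries with Y-linked FPKM, Abcc4 passed the threshold (-1.97, adjusted p = 0.036), and single omissions moved it between -1.62 (without dpc16 replicate 3) and -0.61 (without NP replicate 1).

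Lists of drug and bile acid metabolism had negative medians. Their calls stand beside 0.873% of all genes higher and 0.774% lower. Of 40 xenobiotic P450 genes 2 were higher and 1, Cyp2b13, was lower, with 28 negative differences and a median of -0.56. The higher ones were the close copies Cyp3a44, at 44.1, 65.3 and 98.1 FPKM in NP and 546, 483 and 166 FPKM at dpc16 (2.41 ± 0.51, adjusted p = 0.0132), and Cyp3a41b (2.54 ± 0.64, adjusted p = 0.0445). The first was lost without NP replicate 1 or dpc16 replicate 1 or 2 (adjusted p up to 0.099), the second without NP replicate 2 or 3 or dpc16 replicate 1 or 2 (up to 0.192). Without both libraries with Y-linked FPKM, Cyp3a41b missed the threshold (adjusted p = 0.146). Among 41 conjugation enzymes 1 was higher and 3 were lower, with a median of -0.42. Besides Sult3a2 and Sult1d1 these were the glucuronosyltransferase genes Ugt2b37 (-2.04 ± 0.43, adjusted p = 0.0125) and Ugt1a6b (-1.77 ± 0.36, adjusted p = 0.00982). Ugt2b37 was lost without NP replicate 3 or dpc16 replicate 1 (adjusted p up to 0.0813) and Ugt1a6b without dpc16 replicate 3 (0.0667) or without both libraries with Y-linked FPKM (0.107). Of 23 genes of bile acid synthesis and transport, 20 had a negative difference, the median was -0.58, and Abcc3 was the 1 called.

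In the lists of lipid, sugar and amino acid genes, calls stand beside the same background of 1.65% of all genes in either direction. Of 20 lipogenesis genes, Plin2, a lipid droplet coat protein, was higher (1.75 ± 0.43, adjusted p = 0.0395) and Srebf1, the main transcription factor of lipogenesis, was lower (-2.54 ± 0.58, adjusted p = 0.0213), with a list median of -0.54. Plin2 was at 261, 162 and 135 FPKM in NP and 821, 811 and 331 FPKM at dpc16. Srebf1 was at 156, 129 and 342 FPKM and 23.8, 24.1 and 56.2 FPKM. The call of Plin2 was lost without NP replicate 2 or 3 or dpc16 replicate 1 or 2 (adjusted p up to 0.186), and that of Srebf1 without NP replicate 1 or 3 or dpc16 replicate 1 or 2 (up to 0.142). None of 24 genes of fatty acid oxidation and ketogenesis passed, although 21 had a positive difference, 1 of them with an unadjusted p under 0.05 (median 0.41). The smallest p-values there were those of Acot2 (1.78 ± 0.60, adjusted p = 0.154) and Hadhb (0.74 ± 0.53, adjusted p = 0.651). In both genes dpc16 replicate 3 was far below replicates 1 and 2, and Acot2 passed the threshold when that library was left out (2.45, adjusted p = 0.0427). Acot2 also passed with the replicate block (adjusted p = 0.0126) and with library weights (0.00544). Of 25 glucose and glycogen genes 1 was lower, and the median was -0.13.

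Amino acid breakdown and nitrogen genes had 29 negative differences of 33, a median of -0.60 and 2 lower calls, which are also the 2 lower calls among 12 periportal markers (median -0.80). Over all genes the share of lower calls was 0.774% and that of higher calls 0.873%. Gls2, the liver glutaminase, was at 30.8, 29.1 and 4.94 FPKM in NP and 1.54, 6.02 and 0.935 FPKM at dpc16, where the groups overlapped (-2.46 ± 0.55, adjusted p = 0.0195). Ass1, an enzyme of the urea cycle, was at 796, 623 and 639 FPKM and 258, 286 and 99.4 FPKM (-1.80 ± 0.45, adjusted p = 0.041). Neither passed without both libraries with Y-linked FPKM (adjusted p = 0.266 and 0.247). Singly, the omission of NP replicate 1 or 2 or dpc16 replicate 1 or 3 ended both calls, and that of NP replicate 3 also ended the call of Ass1 (adjusted p up to 0.129 for Gls2 and 0.182 for Ass1). The higher periportal marker was Hsd17b6, a steroid dehydrogenase gene, at 0.146, 5.68 and 1.71 FPKM and 47.5, 18.3 and 4.86 FPKM (2.68 ± 0.66, adjusted p = 0.0388). Its groups overlapped, and it was lost without NP replicate 1 or 3 or dpc16 replicate 1 or 2 (adjusted p up to 0.23).

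Of 20 pericentral markers, 16 had a negative difference, the median was -0.50 and 2 were lower, beside 0.774% of all genes. Nkd1, an inhibitor and target of Wnt signalling, was at 9.38, 9.63 and 14.2 FPKM in NP and 2.91, 4.31 and 2.72 FPKM at dpc16 (-1.48 ± 0.35, adjusted p = 0.0282). Lect2, a secreted chemotactic factor of hepatocytes, was at 276, 311 and 543 FPKM and 138, 129 and 130.3 FPKM (-1.44 ± 0.37, adjusted p = 0.0469). Both calls were lost in each of the 6 fits that left out a library (adjusted p up to 0.15 and 0.228) and without both libraries with Y-linked FPKM. The markers Glul (-0.58 ± 0.43, adjusted p = 0.658), Cyp1a2 (-0.88 ± 0.53, adjusted p = 0.537), Axin2 (-0.65 ± 0.53, adjusted p = 0.713) and Tbx3 (0.37 ± 0.48, adjusted p = 0.856) did not pass.

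No call was made by limma, the 1 tool run, among nuclear receptors, circadian clock genes, immediate early genes and proliferation genes. Alternatives that call more genes in all did call some. Nr1h4 was lower with the connective tissue covariate (adjusted p = 0.00602) and with library weights (0.038). Tk1 was lower with library weights (0.00973) and without all 6 libraries with Y-linked FPKM (0.0472). Gadd45b was higher with library weights (0.00833) and without those 6 libraries (0.0311). Without both zone 3 libraries with Y-linked FPKM, 1 clock gene was lower and the clock median was -0.76. Among 26 nuclear receptors 21 had a negative difference, 3 of them with an unadjusted p under 0.05 (median -0.31), led by Nr1h4, the bile acid receptor FXR (-0.99 ± 0.32, adjusted p = 0.131), and Esr1, the oestrogen receptor (-0.95 ± 0.42, adjusted p = 0.33). The 17 circadian clock genes had a median of 0.08, which was negative in 4 of 17 alternatives, with 1 unadjusted p under 0.05, and Cry1, a repressor of the clock, was among the 2 with the smallest p (1.45 ± 0.68, adjusted p = 0.372). Among 18 immediate early genes, 2 of which had an unadjusted p under 0.05 (median 0.34), Gadd45b was at 5.18, 3.67 and 1.81 FPKM in NP and 53.3, 23.6 and 6.72 FPKM at dpc16 (2.33 ± 0.83, adjusted p = 0.187), and Jund differed by 0.48 ± 0.22 (adjusted p = 0.35). The 33 tested proliferation genes had a median of -0.11, which changed sign in 4 of 17 alternatives, and 1 had an unadjusted p under 0.05. Mki67, the proliferation marker Ki67, was at 0.934, 3.03 and 0.669 FPKM and 2.97, 1.39 and 12.3 FPKM (1.09 ± 0.62, adjusted p = 0.495), with dpc16 replicate 3 the highest. Tk1, thymidine kinase, was at 27.9, 19.6 and 31.1 FPKM and 4.49, 3.02 and 17.7 FPKM (-1.84 ± 0.70, adjusted p = 0.227). Hmmr, the hyaluronan receptor of dividing cells, was under the filter at 0.235, 1.52 and 0.202 FPKM in NP and 0.855, 0.326 and 3.84 FPKM at dpc16. Of 21 interferon-stimulated genes 19 had a negative difference (median -0.65). Gbp3, a guanylate-binding protein, was the 1 lower (-1.69 ± 0.36, adjusted p = 0.0127), beside 0.774% of all genes. This call was lost without NP replicate 2 or 3 or dpc16 replicate 1 (adjusted p up to 0.0928) and without both libraries with Y-linked FPKM (0.062).

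The study reports Slc45a3, Sgk1, H6pd and Pdk4, which it links to glucose metabolism, as raised at dpc16 in whole livers of virus-injected mice. It names Cyp17a1 for its periportal expression. The values below are from microdissected zone 3 of mice for which no virus is named. They therefore do not test what the study reports for whole liver. Sgk1, a serum and glucocorticoid regulated kinase, was at 22.5, 18.8 and 21.96 FPKM in NP and 119, 87.05 and 30.8 FPKM at dpc16 (1.66 ± 0.68, adjusted p = 0.278). H6pd, which forms NADPH in the endoplasmic reticulum, was at 135, 88.5 and 75.5 FPKM and 249, 282 and 104 FPKM (0.999 ± 0.42, adjusted p = 0.296). Both were lowest at dpc16 in replicate 3. With library weights both passed (adjusted p = 0.0155 for Sgk1 and 0.00445 for H6pd). They also passed without all 6 libraries with Y-linked FPKM (0.0329 and 0.00354). Those fits called 744 and 500 genes in all. Slc45a3 (0.35 ± 0.57, adjusted p = 0.901), Pdk4, a kinase that shuts off pyruvate dehydrogenase (0.22 ± 0.67, adjusted p = 0.962), and Cyp17a1, a steroid hydroxylase (1.22 ± 0.63, adjusted p = 0.441), overlapped between the groups and did not pass. Cyp17a1 passed with library weights (adjusted p = 0.0446).

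Markers of other cell types were measured alongside. The 11 Kupffer cell genes, which mark liver macrophages, summed to 173 to 207 FPKM in NP and to 56.8 to 127 FPKM at dpc16, and all 11 had a negative difference (median -0.91) with none past the threshold. With the connective tissue covariate 5 of the 11 were lower and with library weights 2, in fits that called 617 and 744 genes in all. Of the 11 genes, 7 had an unadjusted p under 0.05, against 7.07% of all genes for that direction, and 8 did not overlap between groups, against 9.71%. Endothelial genes summed to 222 to 337 FPKM in NP and 138 to 265 FPKM at dpc16, and none of 13 tested passed, with 1 at an unadjusted p under 0.05. Of the stellate cell genes, Lrat was lower (-2.16 ± 0.35, adjusted p = 0.00097), with sums of 165 to 285 FPKM in NP and 149 to 188 FPKM at dpc16. Cholangiocyte genes summed to 0.0884 to 25.01 FPKM in NP and to 0.204 to 91.6 FPKM at dpc16, with replicate 3 the highest. The sums of 5 neutrophil genes were 1.64 to 4.26 and 0.564 to 26.0 FPKM, with Ngp and Camp at 0 in all 6 libraries. Erythroid genes summed to 216 to 425 FPKM in NP and 90.7 to 303 FPKM at dpc16, lymphocyte genes to at most 9.72 FPKM in any library. The part of these cells in the results was not tested.

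The same change was then examined in the other zones, where the same 11117 genes gave 163 calls in zone 1 (1.47%) and 357 in zone 2 (3.21%). Of the 97 genes higher in zone 3, 65 were also higher in zone 1 (67.0%, and 55.1% of the 118 higher there) and 59 in zone 2 (60.8%, and 45.0% of 131). Of the 86 lower genes, 19 were also lower in zone 1 (22.1%, and 42.2% of the 45 lower there) and 60 in zone 2 (69.8%, and 26.5% of 226). Calls in neither other zone were made for 19 higher and 25 lower genes, which does not show that their change differed between zones. A test of the difference between zones gave 5 genes for zone 3 against zone 1 (0.045%) and 2 for zone 3 against zone 2 (0.018%), and in all of them zone 3 minus the other zone was positive. At an unadjusted p under 0.05 there were 345 and 283. Libraries of different zones with the same number at dpc16 deviated together, and the labels do not say whether zones share animals.

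Pnliprp1, a pancreatic lipase-related gene, and Cyp2c69, a cytochrome P450 gene with close copies, passed in both contrasts. Cyp2c69 was at 634, 753 and 901 FPKM in zone 3 of NP mice and 583, 515 and 403 FPKM at dpc16 (-0.61 ± 0.33, adjusted p = 0.467). It fell from 124 ± 42.4 FPKM to 9.06 ± 2.40 FPKM in zone 1 (-3.61 ± 0.33) and from 464 ± 65.9 FPKM to 41.9 ± 11.8 FPKM in zone 2 (mean ± SD, n = 3 libraries; -3.47 ± 0.33). The difference of the changes was 3.01 ± 0.46 against zone 1 (adjusted p = 0.00578) and 2.86 ± 0.46 against zone 2 (adjusted p = 0.018). The call against zone 2 was lost without NP replicate 1 or 2 or dpc16 replicate 1 or 2 of zone 3 (adjusted p up to 0.103) and without both libraries with Y-linked FPKM (adjusted p = 0.0549). Pnliprp1 was listed at 4.96, 3.16 and 4.33 FPKM in zone 3 at dpc16, at 0 in all NP libraries and at most at 0.259 FPKM in zones 1 and 2 at dpc16. It passed the filter on low values only through the dpc16 zone 3 libraries, so that a higher value there was a condition of its being tested. Gtpbp1, a GTP-binding protein gene, rose in zone 3 (1.05 ± 0.26, adjusted p = 0.0395), fell in zone 1 (-1.12 ± 0.26, adjusted p = 0.0262) and differed between these zones by 2.17 ± 0.37 (adjusted p = 0.017). The rise in zone 3 was called in 1 of the 6 fits that left out a library, the one without NP replicate 1 (adjusted p up to 0.168 in the others), and not without both libraries with Y-linked FPKM (0.142).

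Gpx3 and C9 had a larger fitted change in zone 3 than in zones 1 and 2, but the difference between zones did not pass. The change of Gpx3 was 1.55 in zone 1 (adjusted p = 0.266) and 4.04 in zone 2 (adjusted p = 0.000299), and zone 3 minus zone 1 was 3.68 ± 0.84 (adjusted p = 0.329). For C9 the change was -2.08 in zone 1 (adjusted p = 0.127) and -4.02 in zone 2 (adjusted p = 0.000809), and zone 3 minus zone 1 was -2.78 ± 0.91 (adjusted p = 0.998). Hamp gave -3.27 ± 1.67 (adjusted p = 0.998) and Slc41a2 1.87 ± 0.90 (adjusted p = 0.998) in the same contrast. The median of the cholesterol list was -0.88 in zone 1, -0.96 in zone 2 and -1.77 in zone 3, a difference that was not tested.

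**Figure D5:**
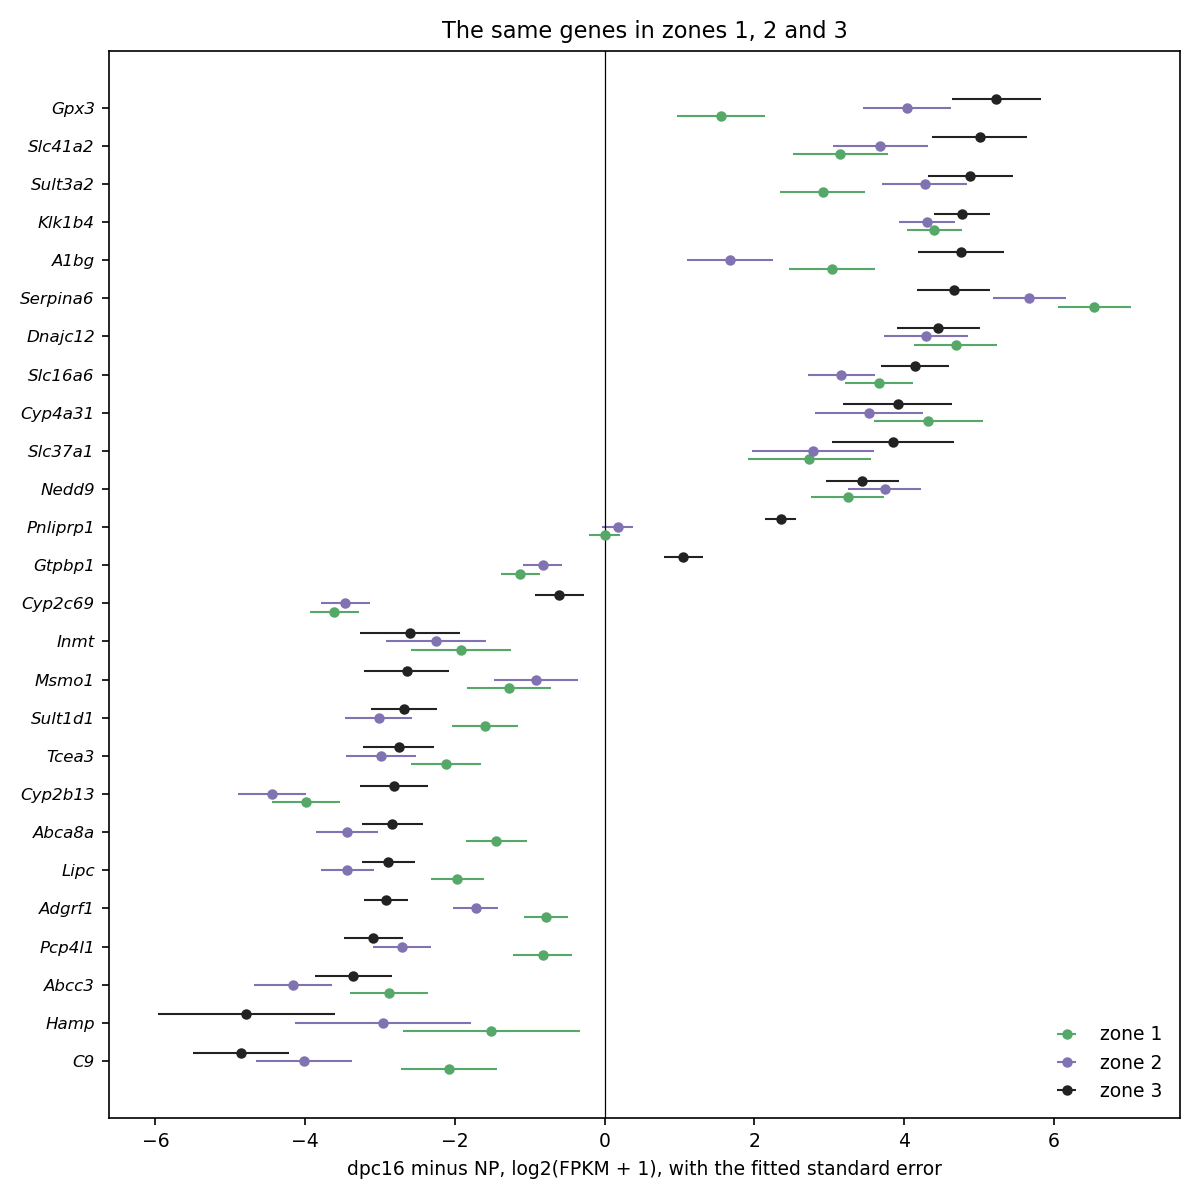
Change from NP to dpc16 in zones 1, 2 and 3 for 23 leading genes of zone 3 and for Pnliprp1, Gtpbp1 and Cyp2c69, which passed the test between zones. The x axis is dpc16 minus NP in log2(FPKM + 1), points are fitted changes and bars their standard errors. Klk1b4 and Dnajc12 lie close together across zones, whereas Cyp2c69 lies at -0.61 in zone 3, -3.61 in zone 1 and -3.47 in zone 2.

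The dpc8 libraries of zone 3 are set beside these values, and share the NP libraries with the comparison above. Serpina6 was at 509 ± 123 FPKM at dpc8, against 568 ± 238 in NP and 13500.1 ± 2591 at dpc16 (mean ± SD, n = 3 libraries each). Gpx3 was at 0.566 ± 0.194 FPKM and C9 at 74.8 ± 32.5 FPKM at dpc8. A1bg was at 1050.0 ± 677 FPKM. Against NP in zone 3 the dpc8 difference was 5.06 ± 0.58 for A1bg (adjusted p = 0.000136), and for Gpx3 it was -0.67 ± 0.59 (adjusted p = 0.999).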

How the data were processed

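RNA of microdissected zones was depleted of ribosomal RNA and sequenced. Per the labels and the study's methods, the authors trimmed reads with cutadapt, mapped them to mm10 with HISAT2 2.1.0, retained unique alignments and ran Cuffdiff of Cufflinks 2.2.1 on protein-coding GENCODE genes. The deposited table holds FPKM per gene and library (fragments per kilobase of transcript, scaled to the mapped fragments), as the authors computed it.

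The titles of the samples gave groups and replicate numbers. Genes with FPKM of at least 1 in at least 3 of the 6 zone 3 libraries were kept. log2(FPKM + 1) was fitted with limma 3.58.1 in R 4.3.3, with a mean for each of the 9 groups over all 27 libraries, an intensity trend and robust variances. limma was used because the table gives no counts. Zone contrasts came from the same fit. Tests were two-sided, with Benjamini-Hochberg adjustment over all genes of a comparison and a threshold of 0.05. An exact permutation test of 3 against 3 libraries cannot go below p = 0.1 and was not used.

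The members of the comparison and the gene lists were chosen with earlier results of these data known, so no list was tested: lists are given by counts and medians. The genes named are Gpx3, Slc41a2, C9 and Hamp, the 12 per direction with the largest change among called genes whose groups do not overlap, up to 4 called members of each list (or the 2 with the smallest p), 11 genes the study discusses and up to 3 per direction for each zone contrast. Some genes that this rule takes in are not reported here. Others are said to be picked after their values were seen. C4a, Tf, Cyp2c44, Mx1 and Mx2 are not analysed here. Positions came from GENCODE vM21 (11032 of the tested genes matched) and upstream sequences from RefSeq on GRCm38.p6.

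Same-numbered NP and dpc16 zone 3 libraries did not deviate together (correlations 0.13, -0.34 and -0.41), so they were not treated as pairs. Alternatives covered the pseudocount, filter, scaling, library weights, a connective tissue covariate, a replicate block, the libraries fitted and the omission of libraries.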

Additional observations from a re-analysis of the deposited data

Results flagged for a closer look

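The change from NP to dpc16 differed between zones for 5 genes by limma's test of the difference itself. The signed difference, zone 3 minus the other zone, was positive for each, which for Cyp2c69 stands for a smaller fall in zone 3 and for Gtpbp1 for a rise in zone 3 beside a fall in zone 1. Against zone 1 the difference of the log2 changes was 3.01 for Cyp2c69, 2.35 for Pnliprp1, 2.17 for Gtpbp1, 1.93 for Slc22a2 and 1.79 for Rdh1. Against zone 2 it was 2.86 for Cyp2c69 and 2.17 for Pnliprp1.

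Slc22a2, an organic cation transporter gene, was listed at 0.245, 0 and 0 FPKM in zone 3 of NP mice and at 4.28, 4.07 and 4.58 FPKM at dpc16, against 0.385, 0.224 and 0.289 FPKM in zone 1 and 1.40, 1.40 and 0.828 FPKM in zone 2 at dpc16. Rdh1, a retinol dehydrogenase gene, stood at 3.82, 3.08 and 4.12 FPKM in zone 3 at dpc16 and at 0.111, 0.119 and 0.150 FPKM in zone 1. Gtpbp1 went from 25.6, 18.9 and 16.01 FPKM to 8.75, 9.06 and 7.88 FPKM in zone 1 and from 9.89, 7.48 and 6.65 FPKM to 18.1, 17.8 and 16.5 FPKM in zone 3.

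For Slc22a2, Pnliprp1 and Rdh1 most values in zone 1 and NP were at or near 0. These 3 genes passed the filter on low values only through the dpc16 zone 3 libraries, where they are high, so their calls and direction are not independent of the filter. With a pseudocount of 0.1 their adjusted p against zone 1 was 0.997, 0.754 and 0.997. Cyp2c69 had adjusted p = 0.011 and Gtpbp1 0.0332 in that fit. Leaving out single zone 3 libraries kept the calls of Cyp2c69, Pnliprp1 and Slc22a2 against zone 1 in 6 of 6 fits, that of Gtpbp1 in 2 (lost without NP replicate 2 or 3 or dpc16 replicate 1 or 2) and that of Rdh1 in 0. Against zone 2 the call of Pnliprp1 was kept in 6 fits and that of Cyp2c69 in 2, and it was lost without NP replicate 1 or 2 or dpc16 replicate 1 or 2 (adjusted p between 0.0676 and 0.103). Without both zone 3 libraries with Y-linked FPKM, the adjusted p against zone 1 was 0.0697 for Slc22a2, 0.126 for Gtpbp1 and 0.286 for Rdh1, and against zone 2 it was 0.0549 for Cyp2c69. With the replicate number as a block Rdh1 had adjusted p = 0.0582 against zone 1.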

How the results depend on the processing

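The number of genes past the threshold in zone 3 (183, with 97 higher and 86 lower) was 51 (32 and 19) with only the groups compared, 617 (248 and 369) after adding the connective tissue covariate, 744 (382 and 362) under library weights and 500 (270 and 230) without all 6 libraries of the series with Y-linked FPKM, an alternative chosen after seeing the data. With a replicate block it was 278 (130 and 148), although the numbers were not found to pair these libraries, and Acot2 (adjusted p = 0.0126) and Gadd45b (adjusted p = 0.00745) passed in it. Leaving out each zone 3 library gave 96 to 164 genes in all, 54 to 97 higher and 37 to 85 lower. The 5 genes of the contrast with zone 1 became 2 with pseudocount 0.1, 9 without a filter, 0 with only the groups compared, 11 with library weights, 9 with the covariate, 2 without both zone 3 libraries with Y-linked FPKM, 1 without all 6 such libraries, 5 with the replicate block (without Rdh1, adjusted p = 0.0582) and 3 to 5 when a library was left out. The 2 genes of the contrast with zone 2 became 1, 4 and 0 in the first 3 of these, 1 without all 6 libraries, 2 with the block and 1 to 2 when a library was left out. At those 0 calls by limma, the 1 tool run, 350 genes (zone 1) and 217 genes (zone 2) had an unadjusted p under 0.05. The cause was not tested beyond the smaller number of libraries in the fits that leave some out. Alb changed by 0 after quantile normalization.

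Of 1258 refits of 74 named genes, 1066 kept their side of the threshold, where a change of sign between uncalled fits counts as kept. Of the others, 166 lost the call, 25 gained it and 1 had another sign with a call in the main fit or the refit. Of 425 list medians, 7 moved by more than the spread between libraries.

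The table gives no counts, so no counting interval can be stated, and values near 0 rest on few reads. With 3 libraries a group and an outlying library in each, genes near the threshold are uncertain.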

Other observations

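The genes below were picked one by one after their values were seen and stand for no wider group. Bco1, which cleaves carotene, was at 2.97, 1.56 and 3.81 FPKM in NP and 14.99, 16.8 and 7.70 FPKM at dpc16 (1.89 ± 0.37, adjusted p = 0.0063), and missed the threshold without dpc16 replicate 2 (adjusted p = 0.056). Aldh1a7, of the retinaldehyde dehydrogenase family, was at 40.7, 40.2 and 67.4 FPKM and 486, 405 and 264 FPKM (2.93 ± 0.45, adjusted p = 0.000469). Rarres2, the gene of the adipokine chemerin, was lower, at 382, 299.9 and 548 FPKM and 104, 103 and 73.5 FPKM (-2.09 ± 0.36, adjusted p = 0.0016). Lrat, a stellate cell marker that esterifies retinol, was lower at 10.7, 8.27 and 9.75 FPKM and 1.63, 1.72 and 0.809 FPKM.

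Sec61a1, the pore of the protein translocon, was at 57.05, 58.9 and 51.6 FPKM in NP and 94.7, 100.4 and 107 FPKM at dpc16 (0.84 ± 0.19, adjusted p = 0.0218). Ddost, of the oligosaccharyltransferase complex, was at 28.6, 33.4 and 35.5 FPKM and 50.3, 51.8 and 66.3 FPKM (0.76 ± 0.17, adjusted p = 0.0168), and its catalytic subunit Stt3b at 25.5, 28.1 and 21.8 FPKM and 51.04, 52.2 and 41.7 FPKM (0.92 ± 0.22, adjusted p = 0.027). Gusb, lysosomal beta-glucuronidase, was at 8.53, 9.29 and 7.82 FPKM and 20.3, 16.4 and 18.3 FPKM (1.02 ± 0.18, adjusted p = 0.00162), and Hexa, a hexosaminidase subunit, at 32.3, 30.5 and 28.7 FPKM and 62.04, 53.1 and 72.5 FPKM (1.004 ± 0.22, adjusted p = 0.0143). The groups overlapped in none of these 5. Sec61a1 passed in 1 of 6 fits that left out a zone 3 library, Stt3b in 2, Hexa in 3, Ddost in 4 and Gusb in 6, with adjusted p of up to 0.113, 0.141, 0.0773, 0.101 and 0.0178. Calls were lost without NP replicate 1 (Sec61a1, Ddost, Stt3b), NP replicate 3 (Sec61a1, Stt3b, Hexa), dpc16 replicate 1 (Sec61a1, Stt3b, Hexa), dpc16 replicate 2 (Sec61a1, Stt3b) and dpc16 replicate 3 (Sec61a1, Ddost, Hexa). Without both libraries with Y-linked FPKM the adjusted p was 0.108 for Sec61a1, 0.134 for Ddost and 0.125 for Hexa.

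Ucp2, a mitochondrial carrier protein gene, was at 28.4, 15.3 and 41.6 FPKM in NP and 129, 142 and 136 FPKM at dpc16 (2.33 ± 0.36, adjusted p = 0.000588). Apoc2, the cofactor of lipoprotein lipase, was at 165, 162 and 117 FPKM and 1112, 1106 and 630.2 FPKM (2.64 ± 0.37, adjusted p = 0.000178). Slc38a4, an amino acid transporter gene, was lower, at 439, 232 and 385 FPKM and 81.9, 106 and 37.1 FPKM (-2.29 ± 0.38, adjusted p = 0.00115). These 3, also picked after their values were seen, passed in each fit that left out a library.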
